A study of Rattus norvegicus with 8 samples.

Results

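Of 37209 genes in the count table, 9 tenascins, thrombospondins and related matricellular proteins are described here. They were named by symbol, namely the tenascins Tnc, Tnn and Tnr, the thrombospondins Thbs1, Thbs2, Thbs3, Thbs4 and Comp, periostin (Postn) and osteopontin (Spp1), and rows with those symbols were taken regardless of case. Of the 10 symbols, 9 matched a row, and Thbs3 matched none and was not analysed here.

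Matricellular proteins are secreted into the extracellular matrix but act mainly as signals between matrix and cells, rather than as load-bearing fibers. Tenascins are large glycoproteins that loosen the adhesion of cells, and thrombospondins form trimers or pentamers that bind calcium, collagen and cell surface receptors. Periostin binds collagen, and osteopontin is a phosphorylated integrin ligand made by smooth muscle cells and macrophages. Many of them are scarce in the adult artery wall and are known to be made in wounds and in the neointima.

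The mRNA came from carotid arteries of male Sprague-Dawley rats that weighed 400 g on average, of an age the labels do not give. The 4 injured samples were left carotid arteries stretched from inside with a balloon catheter, which strips the endothelium, and taken after 2 weeks. The 4 control samples were undamaged right carotid arteries. The control was thus an undamaged vessel of an injured animal, and no sham-operated artery was analysed here. The groups therefore share animals, but the labels do not say which control and injured arteries belong together, and the tests treated the arteries as unpaired. Whole arteries were sequenced, so that fewer cells of a type and less RNA per cell cannot be told apart. The question was which matricellular genes differed between injured and undamaged arteries at this time.

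Total counts lay between 11459632 and 16658089 per artery, and the smallest level that 3 counts allow was 0.18 to 0.262 CPM (counts scaled to library size), a floor that covers counting error only. Levels in CPM were scaled with TMM factors, which correct for differences in RNA composition. The smooth muscle gene Acta2 lay at 12650 to 15470 CPM in control arteries 1 to 3, 6579 CPM in control artery 4 and 4110 to 5321 CPM after injury. The summed CPM of 10 contractile smooth muscle markers was 38700 to 52400 in control arteries 1 to 3 and 18100 in control artery 4. One protocol field of the labels names brain cortex. Of 6 brain markers, Slc17a7, Neurod6, Gad1 and Gad2 had at most 2.21 CPM in any artery. Gfap reached 196 CPM in injured artery 3, and Camk2a 19.7 CPM in control artery 4. The 6 summed to 47 CPM in control artery 4 and 5.13 to 6.07 CPM in the other controls. After injury they summed to 202 CPM in artery 3 and 9.5 to 52.4 CPM in the others. The source of this RNA was not tested. Control artery 4 stood apart from the other controls. Its log2 CPM correlated with theirs at 0.83 to 0.852 across genes, against 0.976 to 0.978 among the others, where genes are not independent replicates. The summed CPM of 7 neuron markers was 7770 in control artery 4 and 3480 in injured artery 3. It was 8.04 to 12.6 in the other controls and 26.2 to 196 in the other injured arteries. For 10 sympathetic neuron markers, listed with earlier results known, the sums were 8690 in control artery 4 and 2300 in injured artery 3. They were 14.8 to 21.8 in the other controls and 16.3 to 161 in the other injured arteries. For some results that depend on these libraries, values without them are also given, and for others only the range with 1 artery left out or the number of such fits that called the gene.

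After injury, 8 of the 9 genes found were called higher, none was called lower, and Tnr was not called. A call means a false discovery rate under 0.05 over all genes tested and a fold change above 2 in edgeR's quasi-likelihood test. All 9 had enough counts to be tested, Tnn only through the injured arteries, since it had at most 1 count in any control. The direction of Tnn in these counts was thus largely set by the filter. Over all 14359 genes tested, 1562 (10.9%) were called in either direction and 1193 (8.31%) were called higher. The median log2 fold change was 3.13 for the 9 genes and -0.06 for all genes tested. In 7 of the 9 genes, every injured artery lay above every control artery, against 14.2% of all genes tested. Together the 9 genes took 0.0528% to 0.0892% of all counts in the control arteries and 0.302% to 0.57% in the injured arteries.

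**Figure D1:**
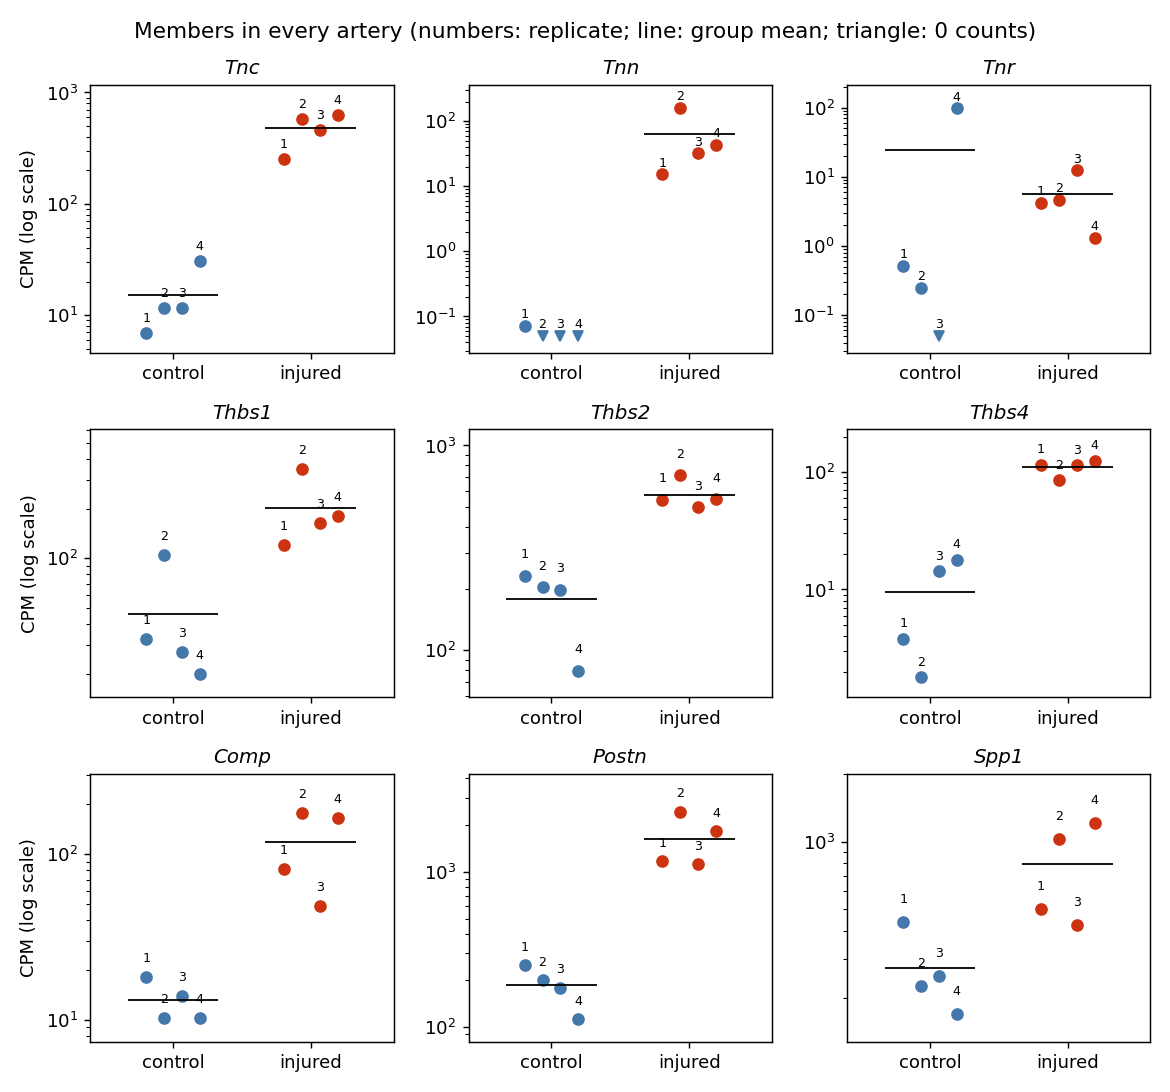
CPM (log scale) of the 9 genes in each of the 4 control (blue) and 4 injured (red) arteries, with the replicate number beside each point, a line at the group mean, and triangles at 0.05 CPM for arteries with 0 counts. The groups are apart for all genes except Tnr and Spp1, and control artery 4 has the highest Tnr of all arteries, at 97 CPM.

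Tnc encodes tenascin-C, the tenascin of wounds and remodeling vessels. Its level was 6.91, 11.5, 11.7 and 30.9 CPM in control arteries 1 to 4 and 254, 579, 459 and 622 CPM in injured arteries 1 to 4. The groups did not overlap, and the lowest injured artery had 8.23 times the level of the highest control. Tnc averaged 15.2 ± 10.6 CPM in the controls and 478 ± 165 CPM after injury (SD, n = 4 each), and rose by a log2 fold change of 4.97 (standard error, SE, 0.56, edgeR adjusted p = 0.00109), or 31.3-fold with a 95% interval from 12.9 to 76.1. The exact permutation test of log2 CPM over all 70 relabellings gave p = 0.0286, two-sided, the smallest value that 4 against 4 arteries allow. That value was also reached by the 6 other genes whose groups did not overlap. Tnn, among these 6, entered the tests only through the injured arteries, so its value is not separate support. Control artery 4 had 3.07 times the mean of the other controls. With control artery 4 left out, the log2 fold change was 5.57, the largest of the 8 fits that each left out 1 artery, and Tnc was called in all 8.

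Tnn encodes tenascin-W, a tenascin known from developing bone and from the stroma around tumors. It had 1 count in control artery 1 and 0 counts in the other controls. In the injured arteries it had 255, 2202, 569 and 524 counts, or 15.3, 160, 32 and 42.9 CPM. Tnn was read in every injured artery, and in the undamaged wall it was not detectable above 1 count at this depth. It had enough counts to be tested only through the injured arteries, so its adjusted p is not separate support for the rise. Against a floor of 3 counts in each control library, the injured arteries had a mean at least 317.5-fold higher (edgeR's adjusted p = 0.000999). Without injured artery 2 this bound was 156.3-fold. The fitted log2 fold change was the highest of all genes tested, but with controls at 0 its size depends on the prior count and it is not used as a measure of size. The injured arteries differed 10.5-fold among themselves, more than for any other called gene of the group, with artery 2 the highest.

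Tnr encodes tenascin-R, the tenascin of the central nervous system. It had 0.504, 0.246, 0 and 97 CPM in control arteries 1 to 4 and 4.13, 4.64, 12.3 and 1.31 CPM in injured arteries 1 to 4. All injured arteries lay above controls 1 to 3 and below control artery 4. The log2 fold change was -2.12 with a 95% interval from -6.49 to 2.25 (edgeR adjusted p = 0.493), so neither direction could be told. Without control artery 4 the value turned to 4.45 (SE 1.03, edgeR adjusted p = 0.0145), and Tnr was then called higher. With control artery 4 and injured artery 3 both left out, an alternative chosen after seeing the data, it was 3.72 (SE 0.82, edgeR adjusted p = 0.00956). The adjusted p ranged from 0.00956 to 1 over 17 alternatives.

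Tnr followed the neuron markers across the arteries in part. The arteries with the highest and second highest Tnr, control artery 4 and injured artery 3, were those with the highest neuron marker sums, and Syt1, a synaptic vesicle protein, was at 1887 and 300 CPM there. In injured artery 2, however, Tnr was at 4.64 CPM with a neuron marker sum of only 26.2 CPM. The summed CPM of 8 Schwann cell markers was 327 to 1170 in controls 1 to 3, 1190 in control artery 4 and 528 to 1890 in the injured arteries. The part of nerve tissue in the Tnr values was not tested.

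Among the thrombospondins, Thbs1 and Thbs2 encode the trimeric members that inhibit the growth of blood vessels and, for Thbs1, activate latent TGF-beta. Thbs1 was at 32.4, 105, 27.3 and 20 CPM in the controls and at 120, 349, 163 and 180 CPM in the injured arteries. The groups were only just apart, since control artery 2 reached 105 CPM while injured artery 1 had 120 CPM. The log2 fold change was 2.14 (SE 0.58, edgeR adjusted p = 0.04), or 4.4-fold with a 95% interval from 1.74 to 11.1. Of the 8 fits that each left out 1 artery, 2 still called Thbs1, those without control artery 2 (log2 fold change 2.93, edgeR adjusted p = 0.00797) and without control artery 4 (1.88, edgeR adjusted p = 0.0363). In the other 6 the log2 fold change was 1.74 to 2.32 and the highest adjusted p was 0.111.

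Thbs2 had the narrowest range of log2 fold changes among the 4 thrombospondins when single arteries were left out. It had 230, 203, 197 and 79 CPM in the controls and 543, 715, 498 and 545 CPM in the injured arteries. Every injured artery had at least 2.16 times the level of the highest control, while control artery 4 lay below the other controls. Thbs2 rose from 177 ± 67.2 to 575 ± 95.9 CPM (SD, n = 4 each), a log2 fold change of 1.70 (SE 0.32, edgeR adjusted p = 0.00966). It was called in all 8 fits that left out 1 artery, with values from 1.45 to 1.84.

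Thbs4 and Comp encode pentameric thrombospondins, which are abundant in tendon and cartilage and are also found in vessel walls. Thbs4 was at 3.82, 1.8, 14.3 and 17.9 CPM in the controls and at 115, 85.1, 114 and 124 CPM in the injured arteries. The controls differed 9.9-fold among themselves but the injured arteries only 1.46-fold, and the groups did not overlap. The log2 fold change was 3.53 (SE 0.67, edgeR adjusted p = 0.0101).

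Comp, the cartilage oligomeric matrix protein, was at 18.2, 10.3, 13.9 and 10.2 CPM in the controls and at 81, 176, 48.9 and 165 CPM in the injured arteries. Here the spread lay on the other side, with a 3.61-fold range after injury and a 1.78-fold range in the controls. Its log2 fold change was 3.16 (SE 0.44, edgeR adjusted p = 0.0027). Both genes were called in all 8 fits with 1 artery left out, with log2 fold changes of 3.18 to 4.03 for Thbs4 and 2.90 to 3.42 for Comp.

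**Figure D2:**
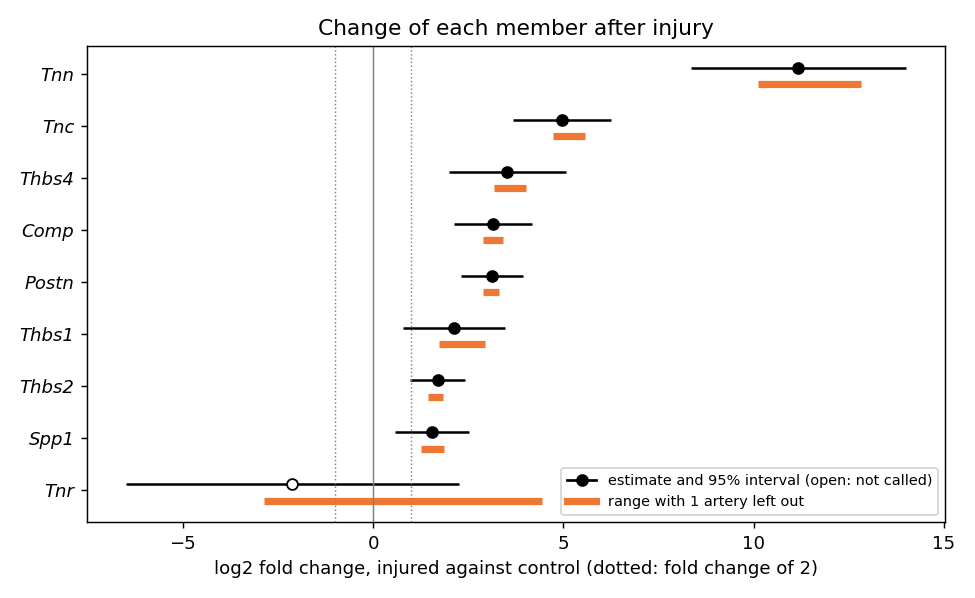
log2 fold change of injured against control arteries with its 95% interval (black, open circle for the gene not called) and the range over the 8 fits that each left out 1 artery (orange). The 8 called genes have ranges at or above 1.26, whereas that of Tnr runs from -2.86 to 4.45, and the position of Tnn depends on the prior count.

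Postn encodes periostin, a collagen-binding protein made by activated fibroblasts and smooth muscle cells. It was at 250, 202, 180 and 113 CPM in the controls and at 1169, 2436, 1117 and 1820 CPM in the injured arteries. The lowest injured artery had 4.46 times the level of the highest control. Postn rose from 186 ± 57.1 to 1635 ± 622 CPM (SD, n = 4 each), a log2 fold change of 3.13 (SE 0.35, edgeR adjusted p = 0.00112), and was called in all 8 fits with 1 artery left out. It made up 21% to 26.6% of the counts on the 9 genes in the controls and 38.6% to 44% in the injured arteries.

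Spp1 was already well expressed in the undamaged wall, at 439, 227, 251 and 169 CPM, and had 501, 1033, 425 and 1215 CPM after injury. The groups overlapped, because injured artery 3 lay below control artery 1. The log2 fold change of 1.55 was the lowest among the called genes (SE 0.43, edgeR adjusted p = 0.0415), or 2.92-fold with a 95% interval from 1.48 to 5.77. The exact permutation test gave p = 0.0571, two-sided. Spp1 was called in 3 of the 8 fits with 1 artery left out, those without control artery 1, control artery 4 and injured artery 3 (log2 fold changes 1.87, 1.37 and 1.75), and the highest edgeR adjusted p of the 8 was 0.122, without injured artery 4. Its share of the counts on the 9 genes was 29.8% to 44.7% in the controls and 14.8% to 25.8% in the injured arteries.

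The promoters of called genes are shown because these genes rose together. Sequences are those of RefSeq on the rat build GRCr8, up to 250 bases before the listed gene start and only as far as no other transcript of the gene begins. A RefSeq promoter entry matched 8 of the 9 genes, with none for Thbs2. For Tnr, Postn and Spp1 the window lay inside the gene and is not shown. Capitals mark matches, on either strand, to the TATA box TATAAA, the AP-1 motif TGANTCA, the TEAD motif CATTCC, the GC box CCGCCC or the CCAAT box CCAAT, which were picked after the windows had been read. No match overlaps another. The windows lie at chr5:82476198-82476381 for Tnc (minus strand), chr13:74919790-74920039 for Tnn (minus strand), chr3:125510000-125510249 for Thbs1 (plus strand) and chr2:25760346-25760595 for Thbs4 (minus strand).
Tnc: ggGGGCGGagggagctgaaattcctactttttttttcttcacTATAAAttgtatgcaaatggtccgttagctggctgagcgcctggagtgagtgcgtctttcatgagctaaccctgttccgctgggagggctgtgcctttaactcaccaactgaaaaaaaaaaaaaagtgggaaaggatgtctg
Tnn: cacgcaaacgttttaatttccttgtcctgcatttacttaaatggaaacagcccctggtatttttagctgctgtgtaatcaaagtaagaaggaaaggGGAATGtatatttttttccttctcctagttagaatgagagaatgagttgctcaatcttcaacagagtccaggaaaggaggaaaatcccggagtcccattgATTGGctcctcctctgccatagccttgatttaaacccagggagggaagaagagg
Thbs1: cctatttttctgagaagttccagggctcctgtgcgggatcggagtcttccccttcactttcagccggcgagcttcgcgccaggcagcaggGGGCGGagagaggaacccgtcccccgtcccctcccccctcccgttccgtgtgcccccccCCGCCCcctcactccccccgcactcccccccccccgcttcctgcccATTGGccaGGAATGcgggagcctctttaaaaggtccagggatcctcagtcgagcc
Thbs4: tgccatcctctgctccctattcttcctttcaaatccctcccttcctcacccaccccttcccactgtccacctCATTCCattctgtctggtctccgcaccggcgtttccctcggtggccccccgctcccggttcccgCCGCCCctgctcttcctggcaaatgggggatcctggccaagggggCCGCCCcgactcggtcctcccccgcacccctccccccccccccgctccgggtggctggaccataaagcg

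The window of Tnc held a TATA box at -208 and a GC box at -248, counted back from the listed start. Over the same 184 bases, 9.27% and 21.6% of 33469 promoters held these motifs. Tnn, Thbs1 and Thbs4 each held a TEAD motif, at positions -154, -47 and -178 counted back from the listed start, and 12.1% of all promoters held it over 250 bases. Tnn and Thbs1 also held a CCAAT box (34% of all promoters), and Thbs1 and Thbs4 held GC boxes (30.5%). None of the 4 windows held the AP-1 motif (4.77% of all promoters over 184 bases and 6.34% over 250), and the window of Comp held none of the 5 motifs. A match of letters does not show that a factor binds.

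Within families, the ratio of 2 genes in each artery does not depend on how libraries are scaled, and 8 such ratios were compared after the values had been seen. The log2 ratio of Postn to Spp1 was -0.51 ± 0.27 in the controls and 1.11 ± 0.36 in the injured arteries (SD, n = 4 each), with no overlap. It had p = 0.0286 in the two-sided exact permutation test, or 0.114 after Benjamini-Hochberg adjustment over the 8 ratios, and did not pass the correction. No value is given for the ratio of Tnn to Tnc, because Tnn had 0 or 1 count in the controls. The 6 ratios among Thbs1, Thbs2, Thbs4 and Comp all overlapped between the groups, with adjusted p from 0.152 to 0.486 in the exact permutation test. In the order of log2 fold changes, the 95% intervals of neighbours overlapped from Tnc through Thbs4, Comp, Postn, Thbs1 and Thbs2 to Spp1. Injured artery 2 had the highest level of 5 of the 9 genes and injured artery 4 that of 3. Leaving aside Tnn, with 0 counts in control arteries 2 to 4, control artery 4 had the lowest control level of 5 genes and the highest of 3.

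The genes with the most similar course over the 8 arteries, by the root mean square difference of centred log2 CPM, were Mcoln2 (0.32) for Tnc and P4ha3, a collagen prolyl hydroxylase (0.35), for Thbs1. For Thbs2 it was Cyba, a subunit of NADPH oxidase (0.13), for Thbs4 Kcp (0.38), and for Comp Mastl, a mitotic kinase (0.29). For Postn it was Lrrc25 (0.28), and for Spp1 Ldlrad1 (0.25). The second genes were Gapt (0.45) for Tnc, Cdca7 (0.42) for Thbs1, Dctd (0.15) for Thbs2, Etv4 (0.43) for Thbs4, Parpbp (0.30) for Comp and LOC102555426 (0.27) for Spp1. No gene came near Tnn, whose closest were the chemokine Ccl9 (1.27) and Mmp12 (1.32). Since Tnn had 0 or 1 count in the controls, these distances depend on the prior count. Among the members themselves, Comp and Postn were closest, at 0.35.

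Cell type markers did not all move with these genes. Macrophage, proliferation and skeletal muscle markers were mostly higher, contractile smooth muscle markers were mostly lower, and the other lists were mixed or not called. The summed CPM of 10 macrophage markers was 192 to 289 in the controls and 1720 to 2600 after injury, and 9 of the 10 were called higher. Injured arteries 2 and 4, with the highest Spp1, also had the highest sums, but Lyz2 alone made up 55.1% to 67.5% of the sum after injury. These were the 2 highest injured arteries for 4 of the 10 markers (Cd68, Cd14, Itgam and Lyz2), while Csf1r and C1qb were lowest in injured artery 4. The 10 cartilage markers found summed to 12.6 to 17.8 CPM in the controls and 45.8 to 238 CPM after injury. Acan, which encodes aggrecan, made up 69.2% to 87.6% of the sum after injury. Injured arteries 2 and 4, with the most Comp, were the 2 highest injured arteries for this sum and for 6 of the 10 markers. These were Acan, Col2a1, Matn3, Chad, Hapln1 and Col9a1. Chad and Hapln1 had too few counts to be tested, and Col9a1 was called lower after injury. Sox9 was lowest in injured artery 4. Of the 6 cartilage markers tested, 3 were called higher and 1 lower, and Matn1 was at 0 in all arteries. Those called higher were Acan, Sox9 and Matn3. Sox9 and Matn3, with at most 20 and 9 counts in any control, could be tested only through the injured arteries, which largely set their direction. Acan had 3 counts in control artery 4 and also passed the filter only with the injured arteries. Of the 5 tendon markers, 2 were tested and neither was called, and Tnmd was at 0 throughout. Thbs1 is abundant in platelets, and the 6 platelet and megakaryocyte markers summed to 5.42 to 18.4 CPM in the controls and 19 to 27 CPM after injury, with 2 tested and none called. Contractile smooth muscle markers were lower, with 7 of 10 called and sums of 18100 to 52400 CPM against 10900 to 17100 CPM. Of 8 adventitial fibroblast markers, 1 was called higher and 3 lower. Of 7 endothelial markers, 2 were called higher and 1 lower. All 9 proliferation markers were called higher, and 7 of 9 skeletal muscle markers were (84.5 to 253 CPM in the controls and 304 to 1100 CPM after injury). Of the latter, Myh1, Myh2, Myh4, Mylpf, Tnni2 and Actn3 had at most 9 counts in any control. They had enough counts to be tested only through the injured arteries, so the filter largely set their direction. The same held, among others, for Cdk1, Ccna2 and the macrophage marker Fcgr3a, with at most 11, 18 and 6 counts in any control. The part of these cell types in the changes of the 9 genes was not tested.

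**Figure D3:**
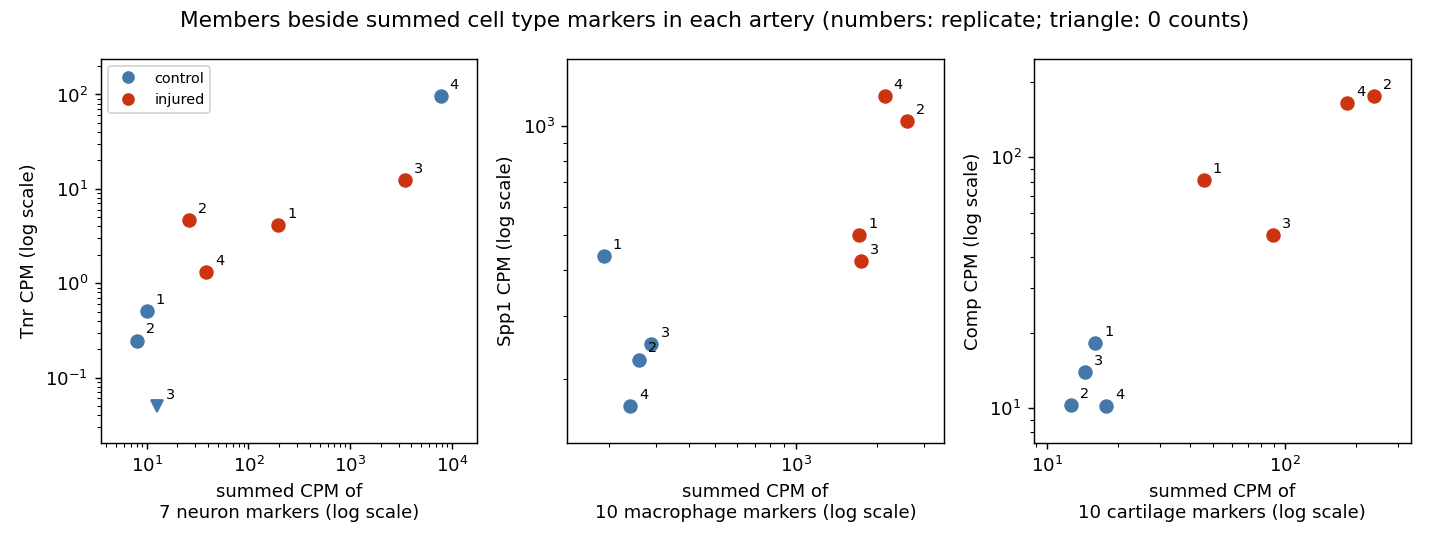
CPM of Tnr, Spp1 and Comp against the summed CPM of neuron, macrophage and cartilage markers in each artery (both axes log scale), for control (blue) and injured (red) arteries with replicate numbers and a triangle at 0.05 CPM for 0 counts. Control artery 4 and injured artery 3 lie at the upper right for Tnr, and injured arteries 2 and 4 lie highest for Spp1 and Comp.

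Of 20 receptors of these proteins tested from a list of 21, 1 was called higher and 2 lower, beside 10.9% of all genes called in either direction, with a median log2 fold change of -0.11. Itga4, which pairs with Itgb1 and binds osteopontin, rose by a log2 fold change of 2.89 (SE 0.51, edgeR adjusted p = 0.00724). Itga8 and Itga9, which pair with Itgb1 in receptors for tenascin-C and osteopontin, had log2 fold changes of -1.32 and -1.30 (edgeR adjusted p = 0.0393 and 0.0396). Both overlapped between groups because of control artery 4. Each was called in 1 of the 8 fits with 1 artery left out, that without control artery 4, at -1.56 for both. Without that artery 5 receptors were called. The 2 added were Cd44, a receptor for osteopontin and hyaluronan (2.03), and Ptprz1, a phosphatase that binds tenascins (4.48), both singled out from these values. The thrombospondin receptors Cd47 and Cd36 had log2 fold changes of 0.04 and 0.15 and were not called.

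Other matricellular genes went both ways. Of 14 tested, 4 were called higher and 2 lower, with a median of -0.20. Spon2, Smoc2, Tgfbi and Cthrc1 had log2 fold changes of 3.19, 2.08, 1.41 and 1.22 (edgeR adjusted p of 0.000502, 0.00238, 0.00176 and 0.0283). The first 3 were called in all fits with 1 artery left out, Cthrc1 in 2 of 8. Without control artery 4, Cthrc1 had 0.99 and was not called. Nov (CCN3), which restrains smooth muscle growth, fell by 1.68 on the log2 scale (edgeR adjusted p = 0.00644), and each injured artery lay below each control. Sparcl1 fell by 1.17 (edgeR adjusted p = 0.0484) and was called in 1 of 8 such fits, that without control artery 4. Ctgf and Cyr61, targets of mechanical signaling, had log2 fold changes of -0.75 and -0.82 and were not called. Sparc had -0.17 and was not called.

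Of 8 proteases known to cut these proteins that were tested, 5 were called higher and none lower, with a median of 2.12. That count and median include Mmp9 and Mmp12, whose direction was largely set by the filter. Adamts7 and Adamts12, which degrade Comp, had log2 fold changes of 2.50 and 1.75, and Adamts4 had 2.59 (edgeR adjusted p = 0.000843, 0.011 and 0.00504). Mmp9 and Mmp12, which cleave osteopontin, were near 0 in the controls and had enough counts to be tested only through the injured arteries. Mmp12 had at most 3 counts in any control and was at least 343.1-fold higher after injury, and Mmp9 rose from at most 0.277 CPM to 3.05 to 21 CPM (edgeR adjusted p = 0.000298 and 0.0027). Mmp2 and Bmp1 had log2 fold changes of 0.07 and 0.43 and Adamts1 of -1.06, and none of them was called. Mmp3 and Mmp7 had too few counts to be tested.

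Of 11 TGF-beta ligands and transcription factors tested, 3 were called higher and none lower. Tgfb1, a classical inducer of tenascin-C and periostin, rose by a log2 fold change of 1.39 (SE 0.16, edgeR adjusted p = 0.00111), whereas Tgfb2 and Tgfb3 had -0.38 and -0.61 and were not called. Runx2, a regulator of osteopontin in bone, and Sox9, a regulator of Comp in cartilage, had log2 fold changes of 2.40 and 3.05 (edgeR adjusted p = 0.00175 and 0.0249). Sox9, which is also among the cartilage markers, was called in 3 of the 8 fits with 1 artery left out. It had enough counts to be tested only through the injured arteries, so its adjusted p is not separate support for the rise. Prrx1 and Twist1 had 0.46 and 0.70, and Egr1 had -1.59 with values from 34.7 to 678 CPM, and none was called.

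**Figure D4:**
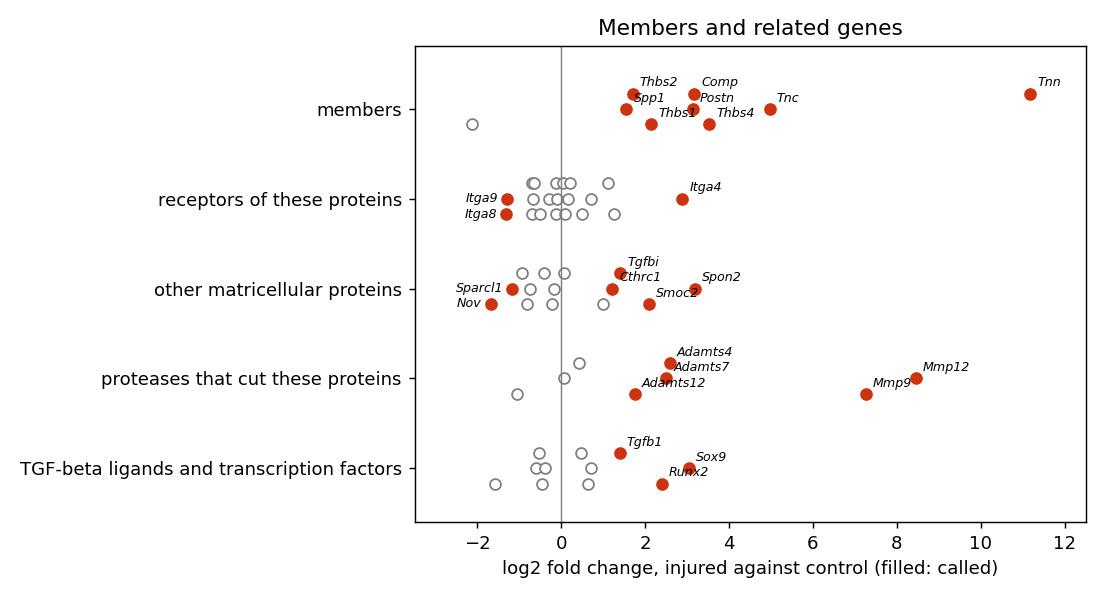
log2 fold change of injured against control arteries for the 9 genes and the tested genes of the 4 related lists, with called genes filled and named. Called genes lie on the positive side for the proteases and the transcription factor list, and on both sides for the receptors and the other matricellular proteins, while the positions of Tnn, Mmp9 and Mmp12 depend on the prior count.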

How the data were processed

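mRNA of 4 injured and 4 control carotid arteries was sequenced, and the authors deposited raw counts per gene without normalization. The submitters' processing notes name HISAT2 2.0.4, and the counting tool, genome build and strand setting are not given in the sources used here, so overlapping or near-identical genes are uncertain. Groups and replicate numbers were taken from the labels. The study speaks of biological replicates, and both groups come from the same animals, but the labels tie no number to an animal, so the fit was unpaired and p-values measure the spread between these samples.

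The counts were filtered with filterByExpr (14359 of 37209 genes left), scaled by TMM and tested by the quasi-likelihood method of edgeR 4.0.16 (R 4.3.3), injured against control and unpaired. The calling thresholds were a Benjamini-Hochberg FDR of 0.05 and a fold change of 2, those of the study, which used DESeq. Standard errors came from the F statistic. Exact permutation tests used log2 CPM with 0.5 added to each count. Folds against controls with at most 3 counts used total counts. DESeq2 1.42.0 was an alternative, beside other scalings, filters, a replicate block and leaving out arteries. The tests were tested on simulated data. Genome coordinates are those of RefSeq promoters on GRCr8 and not of the counting. Lengths of transcripts were not used here, so levels of different genes were not compared.

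All 10 genes, called genes of the related lists and the 2 genes nearest to each called gene were named, except 1 that is not reported here, and others after their values were seen. Members and lists were chosen with earlier results of these data known.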

Additional observations from a re-analysis of the deposited data

Results flagged for a closer look

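In groups of 4 arteries, the gap between the most distant artery and its nearest neighbour was divided by the whole range and compared with Dixon's 95% critical value for 4 samples. Of 18 groups examined for the 9 genes, 3 exceeded it, where chance would give about 0.9 for independent, normally distributed groups. These groups share arteries and their CPM were not logged, so the comparison with 0.9 is not a test. For Tnr, control artery 4 stood apart with a ratio of 0.995, at 97 CPM against 0.504 CPM in the nearest control. For Thbs1, control artery 2 stood apart with a ratio of 0.854, at 105 CPM against 32.4 CPM. For Tnn the ratio was 1 in the controls, because control artery 1 had 1 count and the others had 0.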

How the results depend on the processing

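Tnc, Thbs4, Comp and Postn were called in every alternative, and Tnn in every alternative that tested it. Because Tnn had enough counts only through the injured arteries, its calls are not separate support. Thbs2 was not called against a fold change of 2 (edgeR adjusted p = 0.133), and Thbs1 and Spp1 were not called in 8 of 19 alternatives each. Without a filter their edgeR adjusted p was 0.0509 and 0.0556. DESeq2 called 8 of the 9 genes and gave no adjusted p for Tnr. The number called among the 9 was 5 against a fold change of 2 and ranged from 6 to 9 with each artery left out, 9 without control artery 4. With each artery left out, Tnr ranged from -2.86 to 4.45. It reversed to 4.45 without control artery 4, to 3.72 without that artery and injured artery 3, and to 2.91 with the replicate block.

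The replicate block, used because the groups share numbers, gave Spp1 1.49 (edgeR adjusted p = 0.143) and Thbs1 2.34 (edgeR adjusted p = 0.0145), and called 7 of the 9 genes. Same-numbered arteries deviated together for replicates 1 and 2 (0.301 and 0.45) and apart for 3 and 4 (-0.52 and -0.416), so the numbers did not establish pairs, and only replicate 2 correlated best with its own number. The block called 1187 genes in all, with 234 lower, and 1 receptor.

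Of all genes, 1007 (715 higher) were called with at least 10 counts in every artery, 2468 (918 lower) by the FDR alone, and 661 (600 higher, 61 lower) against a fold change of 2. With control artery 4 and injured artery 3 both left out, it was 2473 (1800 higher, 673 lower). With each artery left out the totals ranged from 1142 to 2398, from 945 to 1817 higher and from 197 to 581 lower, the highest each time without control artery 4. Receptors numbered 1 with upper-quartile factors, library totals only, no filter or a fold change of 2, from 1 to 5 with each artery left out, and 5 with both arteries left out. Proteases numbered 3 with at least 10 counts in every artery. Against a fold change of 2, 2 other matricellular genes and 1 gene of the TGF-beta and transcription factor list were called. Leaving out single arteries gave 4 to 6 other matricellular genes, 5 to 6 proteases and 2 to 3 of that last list. Library totals only moved the median of all genes by 0.176 on the log2 scale. Why these values moved was not tested.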
